A study of Mus musculus with 7 samples.

Results

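Cd38, Gpr18, Fpr2, Egr2 and Myc are 5 genes that tell 2 activation states of mouse macrophages apart, and they were taken by name from the 24084 genes listed in the deposited tables. All 5 were measured in each of the 7 libraries, and all 5 were among the 16226 genes tested. Cd38, Gpr18 and Fpr2 are the 3 M1-exclusive markers and Egr2 and Myc the 2 M2-exclusive markers.

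M1 macrophages are made in culture with bacterial lipopolysaccharide and interferon-gamma, and M2 macrophages with interleukin 4. Many common markers of either state are also present in the other or in resting cells, and exclusive markers were sought to separate the states. CD38 is a cell-surface enzyme that consumes NAD, GPR18 and FPR2 are G protein-coupled receptors for lipid and peptide mediators, and EGR2 and MYC are transcription factors induced by interleukin 4 and by growth signals.

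RNA came from tumor-associated macrophages, sorted by flow cytometry as F4/80+ cells from subcutaneous Lewis lung carcinomas grown from a mouse lung cancer line. The Dicer1-deleted group (LysM-Cre;Dicer-/-, or D-/-, 3 libraries) carried homozygous LysM-Cre and homozygous Dicer lox alleles. The control group (LysM-Cre;Dicer+/+, or D+/+, 4 libraries) carried homozygous LysM-Cre with Dicer intact, so the Cre knock-in at the lysozyme locus was common to both groups. LysM-Cre acts in myeloid cells, neutrophils included, and not in macrophages alone. Dicer1 encodes the enzyme that cuts microRNA precursors. The comparison asks whether macrophages of a tumor change their activation state when Dicer1 is lost.

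Depth lay between 42974524 and 51152370 uniquely placed reads per library. Dicer1 itself was measured, as counts-per-million (CPM), at 7.85, 6.86 and 7.85 with the gene deleted and at 15.7, 15.8, 18.6 and 17.1 in controls, with no overlap. Dicer1-deleted replicate 2 stood apart, with 18888 listed genes against 19399 to 20167 in the other 6 libraries, and with a scaling factor of 0.868 against 0.962 to 1.07. The macrophage genes Adgre1 (the F4/80 antigen), Csf1r and Cd68 were present in every library, Adgre1 between 233 and 1070 CPM, with its lowest value in that same library. The titles of all 7 libraries carry the word CSF1R, and each carries a code, L4 or L5. The labels explain neither. Dicer1-deleted replicates 2 and 3 and control replicate 2 have L4. The labels do not say that libraries came from separate animals, so p-values may measure technical spread alone.

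Dicer1 acts on messenger RNAs through microRNAs, so the 3' untranslated regions of the 5 genes were searched for 7-base matches to the seeds of 15 microRNAs of myeloid and lymphoid cells. A seed is bases 2 to 8 of a microRNA. Cd38 held 3 such matches, Gpr18 held 1, Egr2 held 3, and the 7-base sites of these microRNAs were not in the annotated regions of Fpr2 and Myc. The microRNAs with a match are printed first, with the seed in capitals, from RefSeq on GRCm38.p6. miR-17-5p and miR-20a-5p share a seed.
miR-23a-3p: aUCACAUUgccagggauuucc
miR-24-3p: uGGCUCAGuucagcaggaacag
miR-29a-3p: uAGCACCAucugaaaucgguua
miR-27a-3p: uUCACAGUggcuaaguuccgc
miR-142a-3p: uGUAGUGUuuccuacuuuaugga
miR-34a-5p: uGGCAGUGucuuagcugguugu
miR-17-5p: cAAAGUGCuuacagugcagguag
miR-20a-5p: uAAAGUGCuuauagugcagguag

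The matched sites follow, each with 11 bases on either side and the match in capitals, from GENCODE mouse release 21 transcripts.
Cd38, miR-23a-3p: atagaatctgaAATGTGAtctttatggaa
Cd38, miR-24-3p: taggtttctccCTGAGCCctgctttcgat
Cd38, miR-29a-3p: actttctcatgTGGTGCTtctgtattgtt
Gpr18, miR-27a-3p: tagtggtcaggACTGTGAtccaaacaaac
Egr2, miR-142a-3p: ccgagctgccaACACTACcacccttccct
Egr2, miR-34a-5p: tgcttcaatgtCACTGCCgctgatttgtt
Egr2, miR-17-5p and miR-20a-5p: aaactgatgtgGCACTTTaatggcttggg

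Such matches are common. Of 12152 tested genes with an annotated 3' untranslated region, 7.40% held the miR-142a-3p site and 20.6% the miR-24-3p site, the extremes among the 15. A match describes the sequence and does not show that a microRNA acts there. The sites CTACCTC of let-7a-5p and AGCATTA of miR-155-5p were in none of the 5 regions, whose lengths ran from 363 bases in Gpr18 to 2032 bases in Cd38.

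In TMM-scaled CPM the 3 M1-exclusive markers lay higher in all 3 Dicer1-deleted libraries than in any of the 4 controls. The 2 M2-exclusive markers overlapped between the groups. For Cd38 the separation depended on that scaling. Mean levels were 2.72-fold higher for Cd38, 3.82-fold for Gpr18 and 5.29-fold for Fpr2, and 0.878-fold for Egr2 and 0.973-fold for Myc (n = 3 and 4). In the quasi-likelihood test of edgeR none of the 5 passed an adjusted p of 0.05 over all genes, where 4 genes (0.0247%) passed, 0.00616% of all genes higher and 0.0185% lower. The 3 M1-exclusive markers had an unadjusted p under 0.05, as did 8.01% of all genes, 3.88% higher and 4.14% lower. In DESeq2 these 3 markers passed, all higher, where 2.50% of genes passed, 0.925% higher and 1.57% lower. The 2 groups did not overlap in 9.31% of all genes tested, 3.86% with Dicer1-deleted libraries higher and 5.44% with them lower. A marker level in sorted cells can differ because more cells carry the transcript or because each carries more of it, and bulk libraries do not tell these apart.

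**Figure D1:**
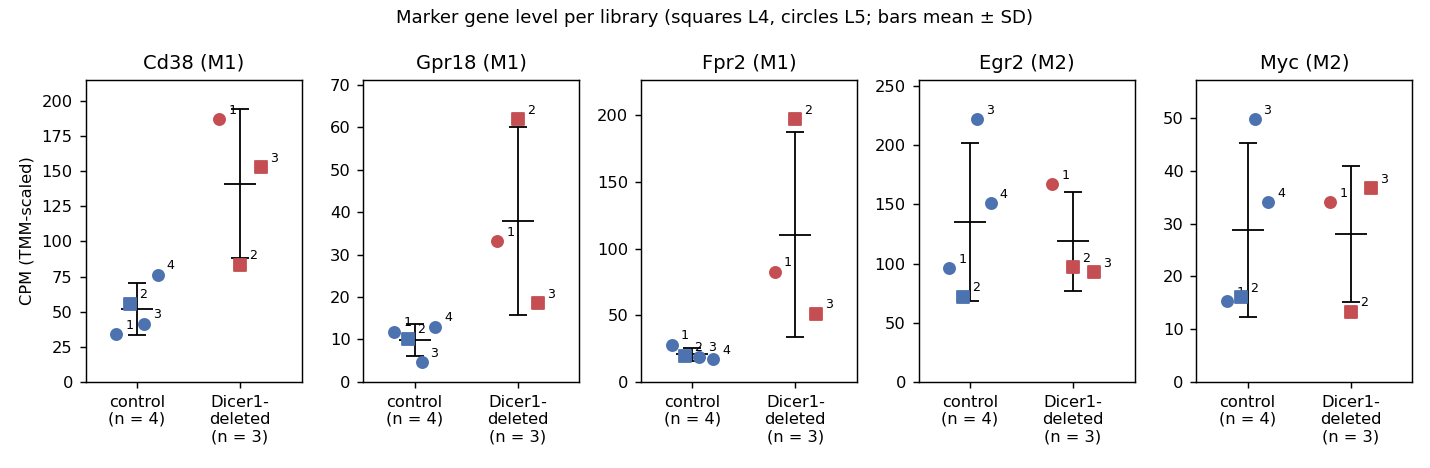
Level of the 5 marker genes in CPM (vertical axes, each from 0) in the 4 control and 3 Dicer1-deleted libraries, numbered by replicate, with the mean and SD as bars. In these TMM-scaled values Cd38, Gpr18 and Fpr2 do not overlap between the groups, and Egr2 and Myc do. Cd38 overlaps when scaled by library size alone.

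Cd38 (ENSMUSG00000029084, chromosome 5, 43868553 to 43912375, plus strand, GRCm38) was at 187, 83.3 and 153 CPM in Dicer1-deleted replicates 1, 2 and 3 and at 33.9, 55.6, 41.5 and 76.2 CPM in control replicates 1 to 4. The groups did not overlap in these TMM-scaled values, but the lowest Dicer1-deleted library, replicate 2, was close to the highest control library. By library size alone Dicer1-deleted replicate 2 was at 72.3 CPM and control replicate 4 at 77.8 CPM, so the groups overlapped. The deposited RPKM values of these libraries, 23.1 and 25.1, overlapped too. Mean levels were 51.8 ± 18.6 in control and 141 ± 52.8 CPM in Dicer1-deleted libraries (SD, n = 4 and 3), or on the log2 scale a change of 1.44 ± 0.37 (SE) with a 95% interval from 0.62 to 2.27 (edgeR adjusted p = 0.24, unadjusted p = 0.00321). DESeq2 gave an adjusted p of 0.0151. This call was lost in DESeq2 without Dicer1-deleted replicate 1 or 3 or without control replicate 1 or 3 (adjusted p = 0.19, 0.0957, 0.0943 and 0.084), with log2 fold changes of 1.21 to 1.40. Its signed log2 fold change was above that of 97.8% of the genes tested.

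Gpr18, which encodes a receptor proposed for the pro-resolving lipid resolvin D2, lies on chromosome 14 at 121911253 to 121915781 on the minus strand (ENSMUSG00000050350). Its level was 33.2, 61.9 and 18.5 CPM in Dicer1-deleted libraries and 11.8, 10.2, 4.63 and 13.0 CPM in controls. Here Dicer1-deleted replicate 2 was the highest library and replicate 3 the nearest to the controls. The control mean was 9.91 ± 3.70 and the Dicer1-deleted mean 37.9 ± 22.1 CPM (SD, n = 4 and 3), or on the log2 scale a change of 1.93 ± 0.46 (SE) with a 95% interval from 0.90 to 2.97 (edgeR adjusted p = 0.206, unadjusted p = 0.00207). DESeq2 gave an adjusted p of 0.0071, and without Dicer1-deleted replicate 2 a log2 fold change of 1.38 and an adjusted p of 0.0806.

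Fpr2, a formyl peptide receptor that binds bacterial and host peptides and annexin A1, lies on chromosome 17 at 17887824 to 17893952 on the plus strand (ENSMUSG00000052270). It was at 82.6, 197 and 51.2 CPM in Dicer1-deleted libraries and at 27.9, 19.2, 19.0 and 17.2 CPM in controls. Every Dicer1-deleted library lay well above the highest control, with replicate 2 again the highest. The control mean was 20.8 ± 4.8 and the Dicer1-deleted mean 110 ± 76.8 CPM (SD, n = 4 and 3), or on the log2 scale a change of 2.40 ± 0.44 (SE) with a 95% interval from 1.42 to 3.39 (edgeR adjusted p = 0.116, unadjusted p = 0.000329). DESeq2 gave an adjusted p of 6.65e-05 and passed Fpr2 with each of the 7 libraries left out in turn. Without Dicer1-deleted replicate 2 the edgeR log2 fold change was 1.67. The neighbor Fpr3 shares 48 exon bases with Fpr2 on the same strand. Multiply placed reads made up between 2.2% and 3.9% of the deposited expected count of Fpr2, against at most 0.25% for the other 4 markers. Fpr3 itself was at 0.0365 to 0.61 CPM.

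Egr2 (ENSMUSG00000037868, chromosome 10, 67535475 to 67542188, plus strand) was at 167, 96.9 and 92.8 CPM in Dicer1-deleted libraries and at 96.2, 72, 222 and 151 CPM in controls. The control libraries held both the lowest and the highest value. The mean was 135 ± 66.8 CPM in control and 119 ± 41.9 CPM in Dicer1-deleted libraries (SD, n = 4 and 3), or on the log2 scale a change of -0.19 ± 0.42 (SE, edgeR adjusted p = 0.996). The 95% interval ran from -1.12 to 0.75, and these libraries do not exclude values within it.

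Myc (ENSMUSG00000022346, chromosome 15, 61985391 to 61990374, plus strand) was at 34.1, 13.3 and 36.7 CPM in Dicer1-deleted libraries and at 15.3, 16, 49.8 and 34.1 CPM in controls. Both groups held low and high libraries. The mean was 28.8 ± 16.5 CPM in control and 28 ± 12.8 CPM in Dicer1-deleted libraries (SD, n = 4 and 3), or on the log2 scale a change of -0.04 ± 0.50 (SE, edgeR adjusted p = 0.999) with a 95% interval from -1.15 to 1.08. For Egr2 and Myc the sign depended on single libraries. Without control replicate 3 the edgeR log2 fold changes were 0.16 and 0.36.

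**Figure D2:**
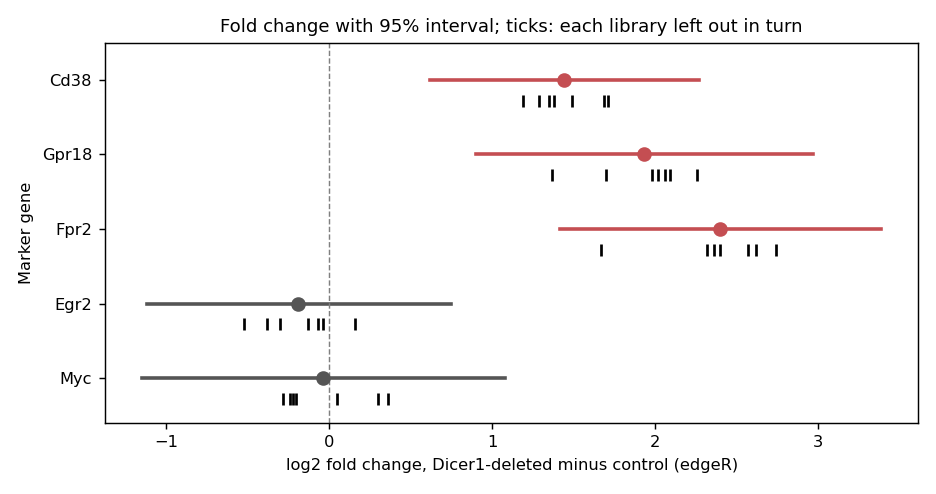
Log2 fold change of each marker gene, Dicer1-deleted minus control (horizontal axis), from edgeR with its 95% interval, with ticks for the value when each of the 7 libraries is left out. The intervals of Cd38, Gpr18 and Fpr2 lie above 0, and those of Egr2 and Myc span 0.

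An exact permutation test of log2 CPM over the 35 ways to split 7 libraries into 3 and 4 gave a two-sided p of 0.0286 for Gpr18 and for Fpr2, the smallest that this design allows. For Cd38 the exact permutation p was 0.0571, for Egr2 0.886 and for Myc 1. Within the code L4 the log2 difference was 1.02 for Cd38, 1.72 for Gpr18, 2.39 for Fpr2, 0.40 for Egr2 and 0.46 for Myc (2 Dicer1-deleted libraries and 1 control library). Within the code L5 it was 1.98, 1.89, 1.98, 0.18 and 0.20 for the same genes in the same order (1 Dicer1-deleted library and 3 control libraries). The M1-exclusive markers were therefore higher within both codes. Egr2 and Myc had a small positive difference within each code and a pooled edgeR value below 0.

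The ratio of an M1-exclusive to an M2-exclusive marker in the same library does not depend on the scaling of that library. The log2 ratio of Cd38 to Egr2 was 0.16, -0.22 and 0.72 in the Dicer1-deleted libraries and -1.50, -0.37, -2.42 and -0.99 in the control libraries, without overlap. The ratios of Gpr18 and Fpr2 to Egr2 and of Cd38 to Myc also separated the 2 groups, with the Dicer1-deleted libraries higher. The ratios of Gpr18 and Fpr2 to Myc overlapped. The log2 ratio of Myc to Egr2 differed little, at -2.16 ± 0.77 in Dicer1-deleted and -2.28 ± 0.25 in control libraries (SD, n = 3 and 4). These ratios reuse the same 5 values and are given as a description.

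Levels of different genes were compared per length, with the RPKM values that the authors deposited, which divide reads by gene length and depth. In control libraries the order of the mean RPKM was Egr2 at 40.1 ± 21.5, Cd38 at 17.0 ± 6.01, Fpr2 at 15.9 ± 3.65, Myc at 10.7 ± 6.55 and Gpr18 at 7.43 ± 2.70 (SD, n = 4). Each neighboring pair in this order overlapped. In Dicer1-deleted libraries the order was Fpr2 at 77.2 ± 45, Cd38 at 45.7 ± 20.2, Egr2 at 33.7 ± 13.6, Gpr18 at 26.5 ± 12.6 and Myc at 10.2 ± 5.28 RPKM (SD, n = 3). Of these neighbors Gpr18 and Myc alone did not overlap, with 14.5 RPKM as the lowest Gpr18 value and 13.8 RPKM as the highest Myc value. Egr2 was thus the marker of highest mean level in control libraries and Fpr2 in Dicer1-deleted libraries.

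The M1-exclusive markers did not follow one pattern over the 7 libraries. Cd38 was lowest of its group in Dicer1-deleted replicate 2, the library in which Gpr18 and Fpr2 were highest. Similarity was measured as the root-mean-square difference of log2 CPM over the 7 libraries, each gene centred on its own mean, so that 0 is an identical pattern. Gpr18 and Fpr2 differed by 0.49, and Gpr18 ranked 9th by likeness to Fpr2 among 8568 genes of at least 5 CPM. Cd38 differed from Gpr18 by 0.89 and from Fpr2 by 1.03. Egr2 and Myc differed by 0.45, with their highest level in control replicate 3 in both cases, but many genes were closer to either. Myc ranked 1142nd by likeness to Egr2, and Egr2 ranked 1349th by likeness to Myc.

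**Figure D3:**
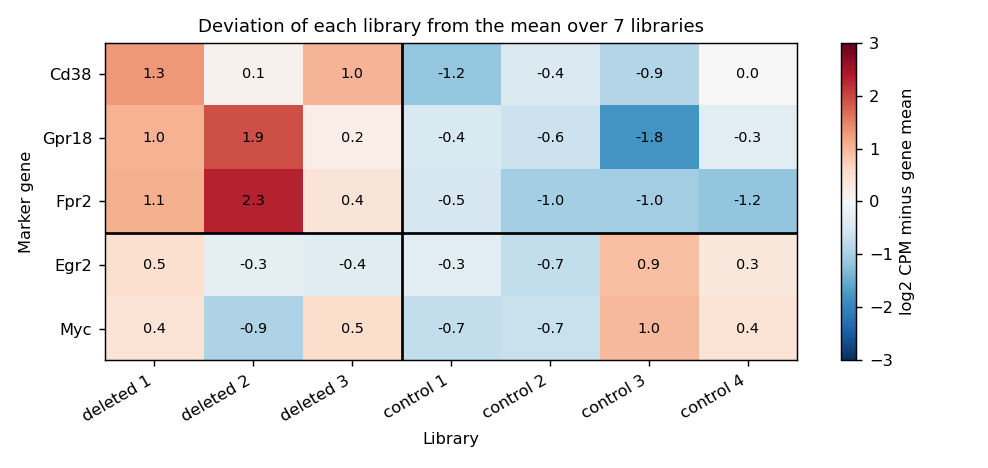
Log2 CPM of each marker gene (rows) in each library (columns) minus the gene's mean over the 7 libraries, with Dicer1-deleted libraries left of the vertical line. Gpr18 and Fpr2 peak in Dicer1-deleted replicate 2, Cd38 in replicate 1, and Egr2 and Myc in control replicate 3.

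The genes of most similar pattern differed by marker as well. For Cd38 they were Adap2, Fam234b and Tcf7l2 (differences of 0.29, 0.32 and 0.32), against a median of 0.92 over the genes compared. For Gpr18 they were Il18bp, which encodes a binding protein that neutralizes interleukin 18, Slamf8 and the Fc receptor Fcgr4 (0.18, 0.25 and 0.27, median 1.22). Il18bp was at 87.1, 223 and 61.2 CPM in Dicer1-deleted and at 33.2, 39.9, 14.5 and 42.9 CPM in control libraries. For Fpr2 they were the adaptor Scimp, Slc36a3os and the protease inhibitor Spint1 (0.16, 0.24 and 0.32, median 1.31), and Scimp was at 101, 317 and 65.6 CPM against 31.7, 26.5, 22.2 and 23.9 CPM. For Egr2 they were Ifi214, Aldh4a1 and the interferon-induced protease Usp18 (0.18, 0.19 and 0.19, median 0.63). For Myc they were the chaperone Dnaja3, Coro1c and Clns1a (0.08, 0.12 and 0.12, median 0.71), and Dnaja3 was at 40.5, 15.3 and 39.6 CPM against 17.6, 16.6, 51.7 and 35.3 CPM. All genes share the same 7 libraries, so this likeness is a description.

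Gpr18 and Fpr2 had the most similar patterns of the M1-exclusive markers, so the 250 bases before the start of each are printed, from RefSeq on GRCm38.p6. Capitals mark matches to 8 motifs searched on both strands. The motifs were GAAA, any 2 bases and GAAA of interferon regulatory factors, TTCNNNGAA of STAT factors, GGGA, any 2 bases and TTCC of NF-kB, TGANTCA of AP-1, GAGGAAGT of PU.1, TTGCNNAA of C/EBP factors, GCGTGGGCG of EGR factors and the E-box CACGTG. The Gpr18 sequence is chr14:121915889-121916138 on the minus strand and the Fpr2 sequence chr17:17887574-17887823 on the plus strand.
Gpr18: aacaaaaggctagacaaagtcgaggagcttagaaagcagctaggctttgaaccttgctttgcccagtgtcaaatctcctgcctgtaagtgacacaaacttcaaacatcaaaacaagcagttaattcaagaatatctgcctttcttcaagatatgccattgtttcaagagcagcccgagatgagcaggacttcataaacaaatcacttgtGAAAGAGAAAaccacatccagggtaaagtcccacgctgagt
Fpr2: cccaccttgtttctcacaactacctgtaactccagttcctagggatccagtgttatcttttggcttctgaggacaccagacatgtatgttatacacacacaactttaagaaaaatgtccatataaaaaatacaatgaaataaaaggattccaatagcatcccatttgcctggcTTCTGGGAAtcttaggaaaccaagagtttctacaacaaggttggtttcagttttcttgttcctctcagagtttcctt

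The Gpr18 window held GAAAGAGAAA, 41 to 32 bases before the RefSeq start, a motif found in 2.98% of 32851 promoter windows of this length. That RefSeq start lies upstream of the Gpr18 start that GENCODE annotates, at 121915781. In the Fpr2 window TTCTGGGAA lay 77 to 69 bases before the start, a motif found in 7.02% of the windows. The Cd38 window, chr5:43868559-43868808 by its RefSeq start, lies inside the gene as GENCODE annotates it and held none of the 8 motifs. Egr2 had 5 windows, and an E-box was found in 1 of them, a motif present in 6.02% of all single windows. For Myc no window was available, so its promoter was not searched. A match is a string of letters and does not show that a factor binds.

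Genes with related roles were examined next, in lists described by counts and medians, with the 5 markers left out of each. Over all genes 52.6% were positive in log2 fold change, and the median of all tested genes was 0.03. No list gene passed in edgeR, so the calls given are those of DESeq2. There 2.50% of all genes passed, 0.925% of all genes higher and 1.57% lower. In the list of NAD metabolism none of 14 tested genes passed in DESeq2, none had an unadjusted p under 0.05 in edgeR, and the median was -0.16. Bst1, the closest relative of Cd38, had a log2 fold change of 0.01 ± 0.36, and Nampt, the main NAD salvage enzyme, one of 0.39 ± 0.50 (SE).

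In the list of formyl peptide and lipid mediator receptors with their ligands and enzymes, 2 of 16 tested genes rose and 3 fell in DESeq2, and the median was 0.51. The receptor Fpr1, a close relative of Fpr2, was at 80.3, 198 and 58.7 CPM in Dicer1-deleted and at 35.9, 58.0, 23.8 and 29.4 CPM in control libraries (log2 fold change 1.61 ± 0.46, SE, edgeR adjusted p = 0.302, DESeq2 adjusted p = 0.0386). Dicer1-deleted replicate 2 was the highest library, as for Fpr2, and the groups did not overlap, with 58.7 against 58.0 CPM at their nearest. The leukotriene B4 receptor Ltb4r1 also rose, from 1.30 ± 0.647 to 5.89 ± 4.38 CPM (SD, n = 4 and 3, DESeq2 adjusted p = 0.0303). Anxa1, the gene of the FPR2 ligand annexin A1, fell from 3360 ± 204 to 1520 ± 201 CPM (SD), with no overlap (log2 fold change -1.14 ± 0.26, SE, edgeR adjusted p = 0.192, DESeq2 adjusted p = 1.15e-05). Alox5, the 5-lipoxygenase of leukotriene and resolvin synthesis, fell from 91.2 ± 12.8 to 28.7 ± 19.9 CPM, and Ltc4s, the leukotriene C4 synthase, from 15.2 ± 8.19 to 3.50 ± 1.74 CPM (DESeq2 adjusted p = 0.0487 and 0.00239). Without Dicer1-deleted replicate 2 none of this list rose in DESeq2, and Anxa1, Alox5 and Ltc4s still fell. Gpr183, a receptor for oxysterols, did not pass, at a log2 fold change of -0.56 ± 0.30 (SE).

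In the list of EGR and other immediate early genes none of 20 tested genes passed in DESeq2 or had an unadjusted p under 0.05 in edgeR, and the median was -0.02. Egr1 had a log2 fold change of -0.29 ± 0.26 and the EGR corepressor Nab2 one of 0.18 ± 0.42 (SE). Egr3 was at most 0.693 CPM in any library. Fos, an immediate early gene that cell handling can induce, was at 1210, 928 and 963 CPM in Dicer1-deleted and at 1480, 1640, 1690 and 1290 CPM in control libraries, without overlap and without passing (edgeR adjusted p = 0.672, DESeq2 adjusted p = 0.263).

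Among partners and antagonists of MYC none of 12 tested genes passed in DESeq2, 1 had an unadjusted p under 0.05 in edgeR, and the median was 0.22. That 1 was Mlxipl, named after its value was seen, at 0.0875 CPM in control and 0.806 CPM in Dicer1-deleted libraries on average. Max, the dimerization partner of MYC, had a log2 fold change of 0.09 ± 0.21 and the antagonist Mxd1 one of 0.81 ± 0.45 (SE). Among 32 tested genes known as MYC targets, Odc1, the first enzyme of polyamine synthesis, was the 1 gene that passed in DESeq2. It fell, from 32.4, 44.4, 39.1 and 29.7 CPM in control libraries to 8.14, 14.9 and 6.66 CPM in Dicer1-deleted libraries (log2 fold change -1.88 ± 0.34, SE, edgeR adjusted p = 0.116, DESeq2 adjusted p = 0.000118). The median of these targets was -0.15, with 11 positive values, and the nucleolar protein gene Ncl was at -0.27 ± 0.28. None of 14 tested proliferation genes passed in DESeq2 or had an unadjusted p under 0.05 in edgeR, and Mki67 was at 0.04 ± 0.29 (log2 fold change, SE).

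In the list of the interleukin 4 receptor pathway and its response genes, 1 of 16 tested genes rose and 1 fell in DESeq2, with a median of 0.28. The nuclear receptor Pparg rose from 6.37 ± 1.95 to 14.9 ± 2.91 CPM (SD, n = 4 and 3, DESeq2 adjusted p = 0.0184), a call not made without Dicer1-deleted replicate 2, and Klf4 fell (DESeq2 adjusted p = 0.00298). The receptor chain Il4ra, its signal transducer Stat6 and the transcription factor Irf4 did not pass, at log2 fold changes of 0.38 ± 0.26, 0.01 ± 0.27 and -1.75 ± 0.76 (SE).

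The other M1 and M2 markers had medians of opposite sign, in lists chosen with earlier results of these data known. Of 25 tested M1 markers of interferon-gamma and lipopolysaccharide, 18 had a positive log2 fold change, the median of the 25 was 0.64, and in DESeq2 5 rose (Cxcl9, Cxcl10, Cxcl11, Itgax and Fpr1) and 1 fell (Ccr7). Nos2 was at 16.3, 32.8 and 17.5 CPM in Dicer1-deleted and at 14.7, 7.23, 6.31 and 98.8 CPM in control libraries, where replicate 4 alone was above the Dicer1-deleted values. Of 18 tested M2 markers of interleukin 4, 4 had a positive value, the median of the 18 was -1.22, and in DESeq2 none rose and 4 fell (Retnla, Ccl17, Ccl22 and Fn1). The 4 that fell did not overlap between the groups, and all were highest in control replicate 3, at 42.3, 4.81, 30.1 and 1180 CPM. The list was not counted without that control library. Arg1 and Mrc1 did not pass, at log2 fold changes of -0.85 ± 0.42 and -0.25 ± 0.41 (SE). Without Dicer1-deleted replicate 2, 3 M1 markers rose and none fell, and 3 M2 markers fell. Egr2 and Myc thus had log2 fold changes of -0.19 and -0.04 beside a list median of -1.22, a contrast that was not tested.

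**Figure D4:**
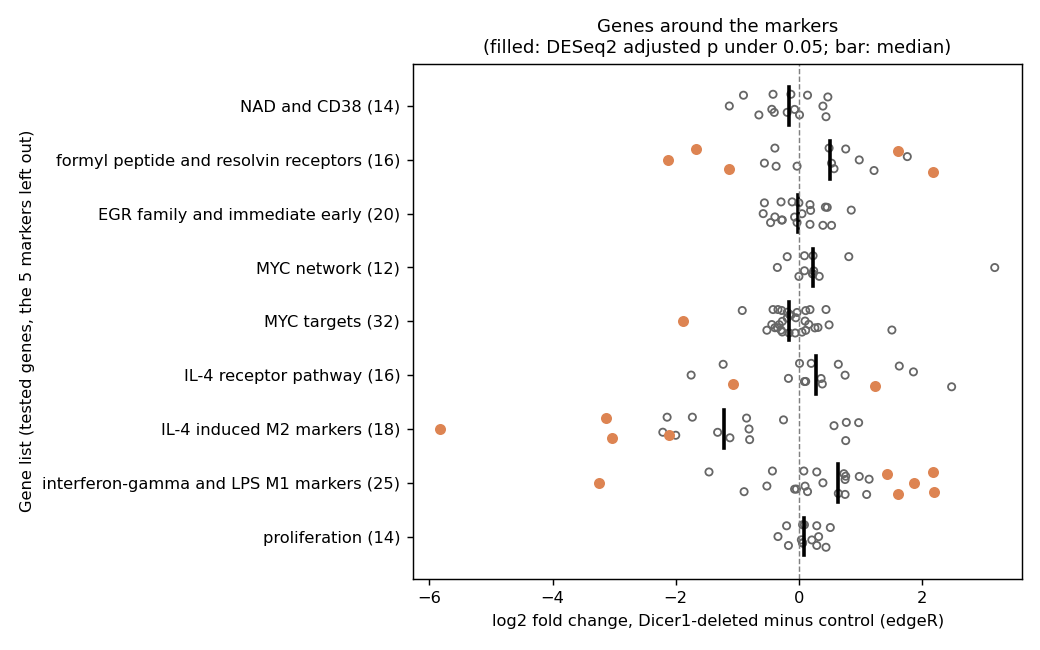
Log2 fold change, Dicer1-deleted minus control (horizontal axis), of the tested genes of each list (rows, number tested in brackets) without the 5 markers, with filled points for an adjusted p under 0.05 in DESeq2 and a bar at the median. The interleukin 4 markers have a median of -1.22 and the interferon-gamma and lipopolysaccharide markers one of 0.64.

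Some of the 5 markers are also expressed by other white blood cells, CD38 and GPR18 by B cells among others and FPR2 by neutrophils, and lists of such cells were read beside them. The summed level of 10 genes of B and plasma cells was 224 to 355 CPM in Dicer1-deleted and 129 to 187 CPM in control libraries, without overlap, with 3 of 7 tested genes higher in DESeq2 (Cd79b, Ighm and Bank1). Ighm was at 136, 111 and 96.8 CPM in Dicer1-deleted and at 62.8, 51.2, 51.8 and 28.7 CPM in control libraries. The list was not of 1 direction, since Igkc and Jchain, which did not pass, were lower at log2 fold changes of -2.36 ± 1.28 and -1.85 ± 1.25 (SE). Ms4a1, a B cell surface gene, was present at 0.182 to 1.66 CPM, and the B cell factor Pax5 was at most 0.0508 CPM. The 11 neutrophil genes summed to 254 to 315 CPM in Dicer1-deleted and 177 to 627 CPM in control libraries, with Mmp8 alone higher in DESeq2. Csf3r did not overlap, at 22.8 to 32 CPM in Dicer1-deleted and 11.1 to 22.1 CPM in control libraries, and did not pass. S100a8 and S100a9 were highest in Dicer1-deleted replicate 2, at 20.5 and 15.2 CPM, against at most 15.4 and 2.73 CPM in the other libraries. Fpr2 and Gpr18 were highest in that library too, as were Mmp8, Ltf and Ly6g. The list was not of 1 pattern, since Csf3r, Retnlg, Cxcr2 and Ngp were highest in Dicer1-deleted replicate 1, at 32, 60.3, 2.74 and 0.996 CPM. In replicate 2 these 4 were at 26.4, 23.3, 0.152 and 0.356 CPM. Mmp9 was at 75 to 97.1 CPM against 52 to 537 CPM, while Ly6g was at most 0.102 CPM and Camp at 0 in every library.

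The 9 genes of conventional dendritic cells summed to 114 to 281 CPM against 63.4 to 304 CPM, with Xcr1 and Batf3 higher and Ccr7 lower in DESeq2. Clec9a was higher without overlap, at 0.789 to 1.22 CPM against 0.0449 to 0.503 CPM, and did not pass. Naaa reached 267 CPM with Dicer1 deleted and 197 CPM in controls, Cd209a reached 3.74 and 109 CPM, and Flt3 was at most 1.34 CPM. The 6 monocyte genes summed to 750 to 1020 CPM against 485 to 1610 CPM, and Treml4 was the 1 that passed, higher in Dicer1-deleted libraries. The 14 T and NK cell genes summed to 11 to 24.2 CPM against 12.2 to 14.4 CPM, with Nkg7 higher and Cd2 lower in DESeq2. The 7 eosinophil genes summed to 6.55 to 36.2 CPM against 17.2 to 42.2 CPM, the 5 carcinoma and epithelium genes to 5.59 to 9.09 CPM against 1.75 to 13.2 CPM, and the 5 fibroblast genes to 12.5 to 23.3 CPM against 12.4 to 27.5 CPM, each overlapping between the groups. The 4 endothelium genes summed to 39.4 to 72.1 CPM against 3.68 to 16.9 CPM, without overlap. Of these Pecam1 rose in DESeq2, at 36.3 to 69.6 CPM against 3.23 to 11.9 CPM, while Kdr was at 1.62 to 2.85 CPM against 0.314 to 4.42 CPM and Tek at most 0.126 CPM. Of the 11 macrophage genes Lyz2, the gene that holds the Cre knock-in, fell in DESeq2. The part of these lists in the marker differences was not tested.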

How the data were processed

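Sorted F4/80+ tumor macrophages were sequenced from amplified cDNA (2 ng of total RNA, a kit that keeps no strand), per the labels' protocols, 3 Dicer1-deleted and 4 control libraries. The deposited counts of uniquely placed reads were tested as they stand. Every count was even, as when each mate of a read pair is counted. The deposited expected counts add shares of multiply placed reads, were rounded, and served as an alternative. RPKM values deposited by the authors, whose gene lengths are not stated, served only to order genes by level. Bowtie2 is named in the submitters' processing notes. For the build, the annotation and the counter, no name was found in the labels or headers. Ensembl IDs were matched to GENCODE mouse release 21 (GRCm38), 21813 with and 2271 without a symbol, and 31124 unlisted values were set to 0.

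Groups were compared with edgeR 4.0.16 (R 4.3.3) over 16226 genes (filterByExpr, TMM scaling, quasi-likelihood F test, Benjamini-Hochberg adjustment at 0.05, no covariate). DESeq2 1.42.0 was run on the same genes. CPM values are TMM-scaled, and log2 CPM has a prior count of 1. The biological coefficient of variation was 45.1%, which limits precision more than depth, and amplified reads without molecular identifiers are not independent molecules. The SE of an edgeR value was derived, as the absolute log2 fold change divided by the square root of its F statistic. The 95% intervals use this SE and the degrees of freedom of the edgeR fit. Alternatives were limma-voom (limma 3.58.1), other scaling and filters, the L code as covariate, robust dispersion, multiply placed reads, read pairs, an exact permutation test and leaving out each library. DESeq2 without each library was added after seeing the data. The workflow was tested on simulated data. The markers and lists were chosen with earlier results of these data known. Named genes are the 5 markers, Dicer1, a preset group of relatives, partners and state markers, list genes that passed, and the 3 genes of most similar pattern per marker with at least 5 CPM. As edgeR called no list gene, list genes passing in DESeq2 are named instead, and Fos and some markers of other cells are named after their values were seen. For 1 gene of the marker lists, its own level is not reported here.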

Additional observations from a re-analysis of the deposited data

How the results depend on the processing

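The 3 M1-exclusive markers kept a positive log2 fold change in every alternative run. In edgeR with each library left out it lay between 1.19 and 1.71 for Cd38, 1.37 and 2.26 for Gpr18, and 1.67 and 2.74 for Fpr2, and in DESeq2 between 1.21 and 1.71, 1.38 and 2.30, and 1.68 and 2.79. In DESeq2 all 3 passed (1.46, 1.97 and 2.45), Dicer1 too (-1.14), and with a library left out Cd38 passed in 3, Gpr18 in 6 and Fpr2 in 7 of 7 fits. Fpr2 passed in edgeR without a count filter (2.43, adjusted p = 0.0437). By library size alone and in RPKM the groups overlapped for Cd38 and did not for Gpr18 and Fpr2. By exact permutation of log2 CPM, Gpr18 (1.86), Fpr2 (2.20) and Dicer1 (-1.16) reached p = 0.0286. Dicer1 without each library lay between -1.19 and -1.10 in edgeR and between -1.16 and -1.09 in DESeq2.

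Egr2 and Myc passed in no alternative. Their edgeR values without each library ran from -0.52 to 0.16 and from -0.28 to 0.36, and those of DESeq2 from -0.48 to 0.17 and from -0.26 to 0.36. With the L code as covariate they were 0.24 and 0.33, and Myc was 0.01 in limma-voom and by exact permutation. The cause was not tested.

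edgeR called 4 genes, DESeq2 405 and limma-voom 2. Without a filter edgeR called 42, with a filter of 10 CPM in 3 libraries 1 and with the L code 0. The cause of these differences was not tested. Leaving out each library gave 0 to 3 calls in edgeR and 237 to 396 in DESeq2. No paired analysis was possible because the labels give no replicate numbers shared by the groups.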
